A study of Mus musculus with 24 samples.

Results

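The genes described here take up, activate, oxidise, store and release fatty acids in mouse cells. They are 46 of the 21887 genes of the GRCm38.p6 gene table, chosen by function from a named list and read in chromatin accessibility data. Every interval of the deposited tables that overlapped one of these gene bodies, extended by 5 kb on each side, was taken. That gave 344 of 299780 intervals in untreated cells and 321 of 272268 in treated cells. By function there were 12 uptake and activation genes, 17 oxidation genes, 9 storage genes, 2 lipolysis genes and 6 regulators. In untreated cells 6 of the intervals lay in the window of more than 1 of these genes, and in treated cells 5 did.

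The assay was ATAC-seq, which reads open chromatin from the places where the Tn5 transposase can cut and tag DNA. E14 mouse embryonic stem cells were cultured on gelatin with serum and LIF, as wild type (WT) or as 1 of the Smad2 knockout lines Smad2_KO1 and Smad2_KO2, each either untreated (Ctrl) or given the mTOR inhibitor INK128 at 200 nM for 12 h, a state that the labels call Paused. Each of the 6 groups had 4 libraries from 50000 cells each, 24 in all, and the labels do not say whether the 4 came from separate cultures, so p-values measure only the spread between these libraries, which may be technical. The knockout alleles and whether each line is a single clone are not given in the sources used here. SMAD2 is a signal transducer of the TGF-beta and Nodal pathway.

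Long-chain fatty acids enter cells through membrane transporters, are joined to coenzyme A by acyl-CoA synthetases, and are then either burned or stored. For burning, the carnitine shuttle carries the acyl group into mitochondria, where dehydrogenases, hydratases and thiolases shorten it step by step and electron transfer flavoproteins pass on the electrons. For storage, acyltransferases build triglyceride, perilipins and CIDE proteins coat or fuse the lipid droplet, and lipases release the fatty acids again. Accessibility says how open the DNA of a gene region is, and does not measure how much RNA or enzyme is made. In bulk libraries, a signal from fewer cells and a lower signal per cell cannot be told apart.

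Depth was between 11772458 and 16525762 reads in intervals per Ctrl library and between 11456986 and 20007829 per Paused library. Values are the authors' normalized read signal per interval, which is reads divided by 1 factor per library, and the tables for Ctrl and Paused were normalized apart. Knockout was therefore compared with WT within each treatment, and Paused was not tested against Ctrl. The summed signal of the targeted gene Smad2 was between 439.2 and 524.4 in WT and between 476.0 and 562.2 in the knockout lines in Ctrl, so accessibility does not check the knockout labels. Of 8 embryonic stem cell markers, 7 had an interval at a gene end in Ctrl and 6 in Paused, where Pou5f1 had none in either table and Klf4 none in Paused, with median WT signals of 190.0 and 190.7. Of 6 adipocyte markers 3 had a gene-end interval in each table, with a median WT signal of 115.5 in Ctrl, where Retn was highest at 156.5, and of 125.9 in Paused, where Plin1 was highest at 192.2, and Adipoq, Cidec and Fabp4 had none. Of 5 fibroblast markers 1 had one in Ctrl and 2 in Paused, with Thy1 at 204.2 and 340.8 in WT.

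A gene-end interval lies within 500 bases of either end of the gene body. In Ctrl, 37 of the 46 genes had one, and in Paused 38 did. Cd36, Fabp3, Fabp4, Cpt1a, Plin3, Cidec, Adipoq and Ucp2 had none in either table, and Ucp3 had one only in Paused, at 12.3 in WT. These are the fatty acid translocase, fatty acid binding proteins of muscle and fat, the liver form of the carnitine shuttle enzyme, droplet coat and fusion proteins, a fat hormone and uncoupling proteins. Having no gene-end interval does not mean closed chromatin. Elsewhere in their windows, Plin3 had 492.6 in WT in Ctrl and 565.0 in Paused at chr17:56291224-56291424. Ucp2 had 388.3 and 557.4 at chr7:100495705-100495905, while a Cd36 interval, chr5:17850688-17850888, had 58.6 and 41.9. The ends of the oxidation genes were open in WT, with a median of 235.4 in Ctrl and 323.8 in Paused. They ranged in Ctrl from 55.5 at Cpt1b, the muscle form of the shuttle enzyme, to 618.5 at Etfdh, which passes electrons to the respiratory chain. Storage genes stood at a median of 112.8 in Ctrl and of 162.9 in Paused, between 75.7 at Cidea and 469.5 at Dgat1 in Ctrl. Uptake genes had medians of 249.6 and 236.1, with Acsl5 lowest at 18.7 and Acsl3 highest at 457.9 in Ctrl. The median over all genes with a gene-end interval was 187.0 in Ctrl and 241.3 in Paused. The ranges of these groups overlapped.

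Promoters of 6 genes are shown because they carry an interval that was called in the knockout comparison, and because both directions occur among them. Each runs from 250 bases before to 50 after the RefSeq start, on the gene's strand, from GRCm38.p6, and capitals mark the nuclear receptor half-site AGGTCA (or TGACCT on the other strand) and the SMAD box CAGAC (or GTCTG). Echs1 (chr7:140116372-140116671, minus strand) encodes the short-chain enoyl-CoA hydratase, and Acadvl (chr11:70015379-70015678, minus) the very long-chain acyl-CoA dehydrogenase. Etfb (chr7:43443822-43444121, plus) and Etfdh (chr3:79628718-79629017, minus) serve electron transfer. Plin2 (chr4:86670010-86670309, minus) and Cidec (chr6:113434715-113435014, minus) coat and fuse lipid droplets.
Echs1: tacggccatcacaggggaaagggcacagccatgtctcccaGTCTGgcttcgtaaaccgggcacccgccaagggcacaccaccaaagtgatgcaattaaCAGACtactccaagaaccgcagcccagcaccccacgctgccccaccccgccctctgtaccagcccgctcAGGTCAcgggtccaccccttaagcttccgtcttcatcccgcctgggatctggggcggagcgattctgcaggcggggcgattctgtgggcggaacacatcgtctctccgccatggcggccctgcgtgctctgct
Acadvl: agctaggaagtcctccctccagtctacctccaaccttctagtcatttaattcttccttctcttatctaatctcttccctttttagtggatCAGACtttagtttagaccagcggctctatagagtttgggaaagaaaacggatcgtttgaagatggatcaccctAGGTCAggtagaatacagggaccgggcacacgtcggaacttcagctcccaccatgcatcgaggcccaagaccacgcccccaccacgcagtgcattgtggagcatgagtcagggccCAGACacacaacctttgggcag
Etfb: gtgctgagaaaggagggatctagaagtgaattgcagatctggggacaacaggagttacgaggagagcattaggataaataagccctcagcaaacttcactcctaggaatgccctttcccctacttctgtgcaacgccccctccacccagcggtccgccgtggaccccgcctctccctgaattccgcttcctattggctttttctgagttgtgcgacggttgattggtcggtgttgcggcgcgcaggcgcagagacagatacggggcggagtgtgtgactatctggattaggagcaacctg
Etfdh: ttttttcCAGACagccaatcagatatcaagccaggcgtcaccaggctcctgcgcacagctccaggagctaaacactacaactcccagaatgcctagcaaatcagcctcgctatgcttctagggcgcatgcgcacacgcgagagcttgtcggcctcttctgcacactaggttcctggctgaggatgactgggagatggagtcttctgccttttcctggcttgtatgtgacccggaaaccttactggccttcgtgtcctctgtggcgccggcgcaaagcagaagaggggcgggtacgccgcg
Plin2: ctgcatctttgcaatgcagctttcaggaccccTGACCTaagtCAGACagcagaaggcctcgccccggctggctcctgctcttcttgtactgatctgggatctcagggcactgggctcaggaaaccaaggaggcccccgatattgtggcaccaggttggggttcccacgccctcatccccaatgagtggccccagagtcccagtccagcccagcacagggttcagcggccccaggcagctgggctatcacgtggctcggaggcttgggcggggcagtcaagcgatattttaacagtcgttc
Cidec: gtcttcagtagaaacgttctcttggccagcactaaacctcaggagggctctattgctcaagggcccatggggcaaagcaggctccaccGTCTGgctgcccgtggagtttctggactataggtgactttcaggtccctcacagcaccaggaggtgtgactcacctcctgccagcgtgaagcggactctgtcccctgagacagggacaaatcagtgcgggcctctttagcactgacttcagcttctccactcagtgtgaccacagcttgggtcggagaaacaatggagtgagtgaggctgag
Signal over the first 4 of these was lower in the knockout lines in Paused. At the Echs1 promoter WT had a mean of 261.62 in Ctrl against 217.50 in Smad2_KO1 and 222.32 in Smad2_KO2 (log2 fold change -0.25, SE 0.09, limma adjusted p = 0.0491), a call lost in 8 of 12 fits with a library left out (0.155 without WT library 4). In Paused it went from 318.66 to 254.77 and 241.42 (-0.35, adjusted p = 0.00108) and was called in each such fit. In Paused the Acadvl promoter had 228.96 in WT against 200.86 and 185.03 (-0.24, adjusted p = 0.0278), Etfb 428.35 against 367.32 and 381.88 (-0.19, 0.0454), and Etfdh 820.47 against 716.22 and 742.84 (-0.17, 0.0286). These calls were lost in 3, 9 and 4 of the 12 fits, with p up to 0.142 (without WT library 1), 0.194 (without WT library 1) and 0.0734 (without Smad2_KO2 library 1). Signal over the last pair was higher in Paused, by 0.34 at Plin2 (131.93 in WT against 162.4 and 172.62, adjusted p = 0.00789) and by 0.75 at Cidec (9.17 against 15.35 and 16.51, adjusted p = 0.0272). With size factors neither rise was called (adjusted p = 0.07 and 0.0549). The Cidec call was lost in 4 of 12 fits with a library left out (up to 0.128, without WT library 3). Of the intervals in a promoter window, 26 were tested in Ctrl and 1 was called, lower, while 27 were tested in Paused and 6 were called, 2 higher and 4 lower. These shares are 3.85% and 22.2%, beside 10.5% and 26.9% of all gene-end intervals, a different set that also takes in the 3′ ends of genes. The share over the promoter windows of all genes was not computed.

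Letter matches to these motifs were common in all promoters. RefSeq promoters were found for 37 of the 46 genes, 43 promoters in all. AGGTCA on either strand occurred in 10 of the 43 (23.3%) and in 16.3% of 32851 promoters of the same length. A direct repeat of 2 such half-sites with 1 base between them, the form that PPAR receptors are known to bind and which contains the single half-site, occurred in none of the 43 and in 0.0396% of all. CAGAC on either strand occurred in 28 of the 43 (65.1%) and in 49.6% of all. Among the 6 sequences above, the half-site occurred once each in Echs1, Acadvl and Plin2, and the SMAD box at least once in all but Etfb. A match is a run of letters, not a measured binding site.

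Across all members, 55 of 333 tested Ctrl intervals were called in knockout against WT (37 higher and 18 lower), at a limma adjusted p under 0.05 with the mean of both knockout lines set against WT. The members' 16.5% stood beside 17.1% of all intervals, of which 10.4% were higher and 6.66% lower. In Paused, 103 of 311 were called (69 higher and 34 lower), which is 33.1% beside 27.5% of all intervals (18.1% higher and 9.39% lower). The split depends on scaling. With DESeq2 size factors it was 24 higher and 27 lower in Ctrl and 48 and 51 in Paused, and with edgeR on the recovered reads 23 and 28, and 41 and 51. Over all intervals, size factors gave 21521 higher and 27697 lower of 282089 in Ctrl, and 32931 and 40351 of 260539 in Paused. Of the size-factor calls, 47.1% of members' were higher in Ctrl beside 43.7% over all intervals, and 48.5% beside 44.9% in Paused. The median log2 fold change was 0.07 for members and 0.08 for all intervals in Ctrl, and 0.10 and 0.12 in Paused, and size factors bring the median of all intervals to 0.01 in both, so a change is best read relative to that shift. The Ctrl count fell to 34 without WT library 1 and to 35 without WT library 4. With same-numbered knockout libraries averaged, 38 were called in Ctrl and 74 in Paused.

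The knockout lines did not differ from each other at any member interval by limma in either treatment, where 0.0% of all intervals were called, with 7 member intervals in Ctrl and 2 in Paused at an unadjusted p under 0.05. By edgeR and DESeq2 the counts were also 0. Against WT, which both comparisons share, 40 member intervals were called in Smad2_KO1 and 34 in Smad2_KO2 in Ctrl, where 11.6% and 10.7% of all intervals were, and 74 in each line in Paused, where 19.4% and 19.3% were. All 8 knockout libraries stood above all 4 WT libraries at 18 member intervals in Ctrl and below them at 11, together 8.71% beside 7.48% of all intervals (4.16% above and 3.32% below). In Paused they stood above at 30 and below at 13, together 13.8% beside 11.5% (7.25% above and 4.2% below). By the authors' deposited table, 39 member intervals passed a false discovery rate of 0.05 in Ctrl (22 higher, 17 lower), 11.3% beside 12.2% of all, and 87 in Paused (51 higher, 36 lower), 27.1% beside 21.6%. Of 249 member intervals found in both tables, 47 were called in Ctrl and 87 in Paused, and 32 in both with the same sign, which is 68.1% of the Ctrl calls and 36.8% of the Paused calls. None was called with opposite signs. Over all matched intervals the shares were 64.6% and 42.5%.

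The direction of the calls went with the level of the interval. Intervals were tested only with a value of at least 10 in at least 4 libraries. A weak one could therefore enter through knockout libraries alone, which favours rises at that level. With no filter, 37 member intervals were called higher and 17 lower in Ctrl, and 69 and 34 in Paused. Among members with a mean signal under 50, 31 of 231 were higher (13.4%) and 6 lower (2.6%) in Ctrl, beside 11.3% and 4.83% of all intervals at that level, and 55 of 198 were higher (27.8%) and 5 lower (2.53%) in Paused, beside 21.1% and 4.87%. Above 200, none was higher in either treatment, while 7 of 39 were lower in Ctrl (17.9%) and 19 of 47 in Paused (40.4%). The same pattern ran through all intervals, of which above 200 1.83% were higher and 11.5% lower in Ctrl, and 1.6% and 36.1% in Paused. With size factors 0 members were higher and 9 lower above 200 in Ctrl (23.1% lower beside 24.2% of all intervals), and 0 and 29 in Paused (61.7% beside 62.1%). Under 50, 21 were higher and 9 lower in Ctrl (9.09% and 3.9% beside 8.39% and 6.38%), and 43 and 6 in Paused (21.7% and 3.03% beside 15.1% and 7.35%).

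**Figure D1:**
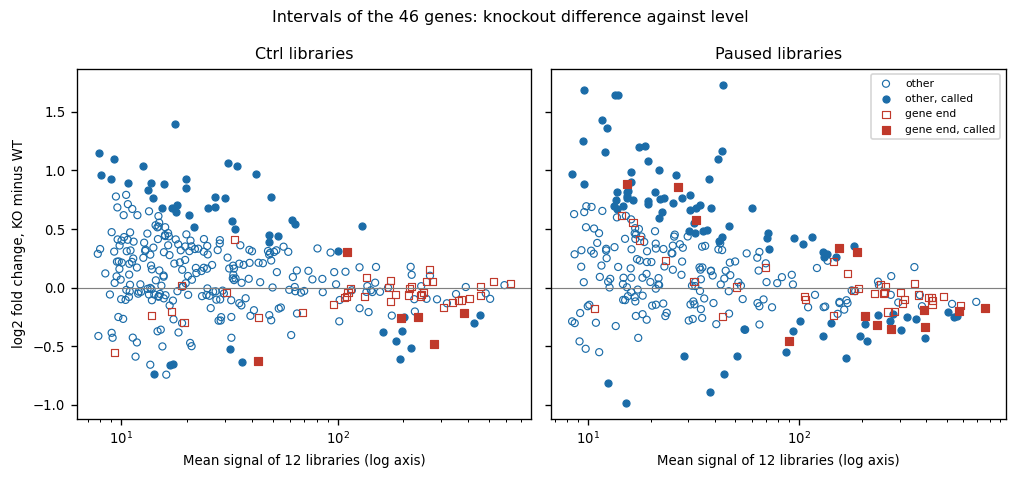
Each point is a member interval, with its mean signal over 12 libraries on a log axis and its log2 fold change of knockout against WT, Ctrl and Paused in separate panels, with filled points for called intervals and squares for gene ends. Called rises sit at low mean signal and no called rise lies above a mean of 200.

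Split by place, the gene ends gave few calls in Ctrl. Of 44 tested member gene-end intervals 6 were called (1 higher, 5 lower), 13.6% beside 10.5% of all gene-end intervals (3.78% higher, 6.73% lower). In Paused 13 of 47 were called (5 higher, 8 lower), 27.7% beside 26.9% (6.84% higher, 20.0% lower). Away from gene ends, 49 of 289 were called in Ctrl (36 higher, 13 lower), 17.0% beside 16.1% of such intervals near any gene (9.95% higher, 6.14% lower), and 90 of 264 in Paused (64 higher, 26 lower), 34.1% beside 26.8% (18.7% higher, 8.11% lower). With size factors the gene-end splits were 0 and 6 in Ctrl and 3 and 15 in Paused, and the others 24 and 21, and 45 and 36. Shares over all intervals of each place with size factors are not given here. Of the Ctrl member intervals 34 lay inside the body of another gene and 15 at another gene's end, and 39 and 17 in Paused, so these can belong to a neighbour.

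Signal was then summed over all intervals of a gene and tested across all protein-coding genes. In Ctrl 7 of 46 member genes were called, 2 higher and 5 lower, which is 15.2% beside 16.2% of 18893 genes (6.31% higher, 9.87% lower). In Paused 19 were called, 7 higher and 12 lower, 41.3% beside 36.5% of 18697 genes (10.1% higher, 26.4% lower). With size factors the splits were 1 higher and 9 lower in Ctrl and 2 and 23 in Paused. Summed over gene-end intervals alone, 2 of 37 genes were called in Ctrl, both lower (5.41% beside 5.01%, of which 1.7% higher and 3.31% lower), and in Paused 9 of 38 (3 higher, 6 lower), 23.7% beside 23.8% (4.34% higher, 19.5% lower). The Paused gene-end count moved from 9 to 14 without WT library 2 and to 19 without WT library 3. Summed over the other intervals, 11 of 46 were called in Ctrl (7 higher, 4 lower), 23.9% beside 22.9% (11.8% higher, 11.1% lower), and 23 in Paused (11 higher, 12 lower), 50.0% beside 38.3% (19.0% higher, 19.3% lower). With size factors the gene-end calls were 6 in Ctrl, and 1 higher and 16 lower in Paused, and the other sums 6 and 9, and 7 and 16. Shares over all genes with size factors are not given here for any of these sums. The uptake gene Acsl5 and the oxidation genes Hadhb and Echs1 fell most, in both treatments, and Cidec of the storage genes rose in both.

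**Figure D2:**
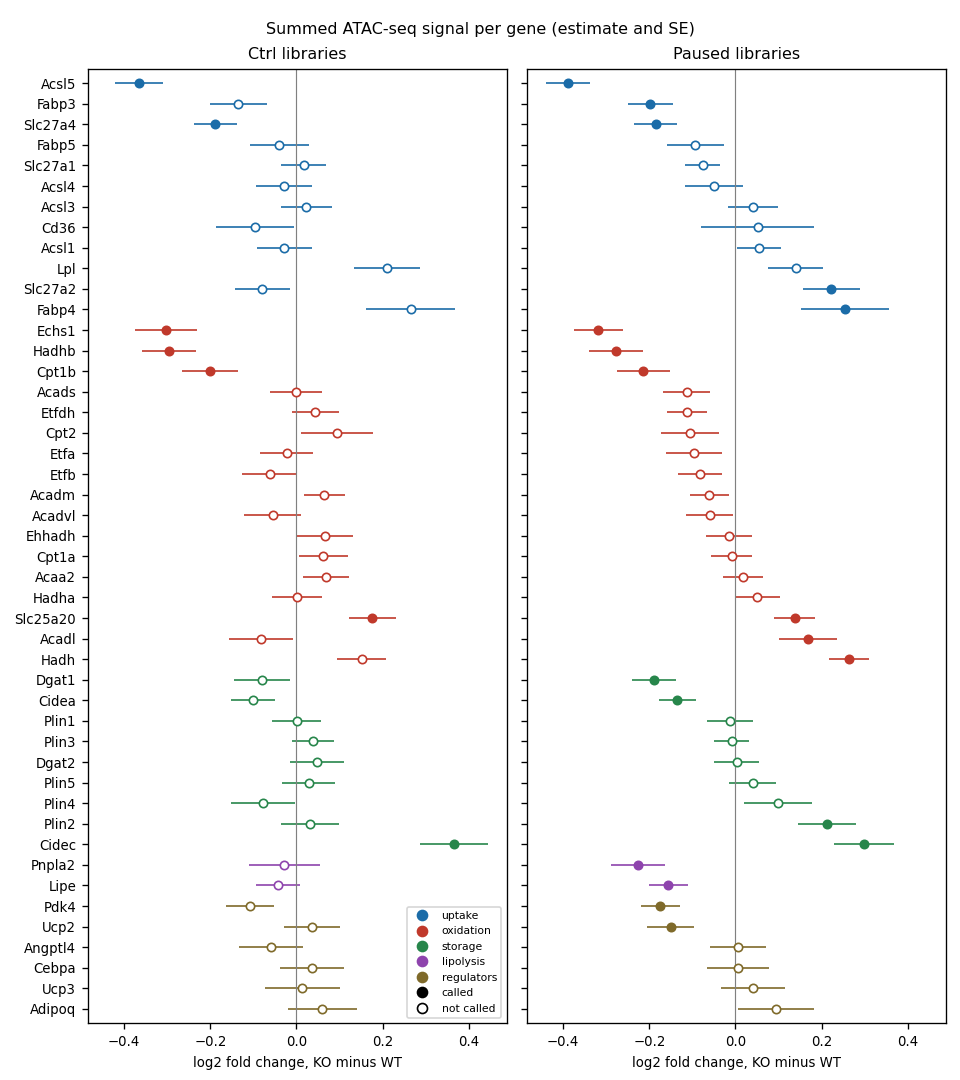
Log2 fold change of summed signal for each of the 46 genes, knockout against WT, with standard errors, coloured by function, in separate panels for Ctrl and Paused, with filled points for called genes. Acsl5 lies at -0.37 and -0.39, Echs1 at -0.30 and -0.32, and Cidec at 0.37 and 0.30.

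Among the 12 uptake genes, 6 of 86 Ctrl intervals were higher and 10 lower, 18.6% called beside 17.1% of all intervals, and 12 and 11 of 74 in Paused, 31.1% beside 27.5%. Of all intervals 10.4% were higher and 6.66% lower in Ctrl, and 18.1% and 9.39% in Paused. With size factors these were 3 and 10, and 7 and 15. Acsl5 activates long-chain fatty acids by joining them to coenzyme A. Its summed signal in Ctrl was 817.1, 855.4, 929.8 and 821.8 in WT, 678.8, 674.4, 690.6 and 634.2 in Smad2_KO1, and 658.4, 704.4, 586.4 and 686.3 in Smad2_KO2. All 8 knockout libraries were below all WT libraries, with a log2 fold change of -0.37 (SE 0.06, limma adjusted p = 5.47e-06). In Paused WT had 801.0, 787.9, 858.8 and 795.9, Smad2_KO1 667.0, 606.2, 583.1 and 625.7, and Smad2_KO2 626.2, 648.7, 595.0 and 602.8. The groups again did not overlap (-0.39, SE 0.05, adjusted p = 4.35e-07).

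The fall at Acsl5 came from its body and not from its end. The interval chr19:55254619-55254819, 1350 bases past the RefSeq start, had WT, Smad2_KO1 and Smad2_KO2 means of 272.40, 184.62 and 196.40 in Ctrl (-0.52) and fell by 0.41 in Paused. Another, chr19:55258167-55258367, went from 22.06 to 11.85 and 16.62 in Ctrl (-0.66, adjusted p = 0.0445), a call lost in 7 of 12 fits with a library left out (p up to 0.153, without WT library 3). A further one, chr19:55271539-55271739, went from 486.21 to 408.74 and 380.92 (-0.30), and by -0.43 in Paused. The weak gene-end interval 55251912 of Paused went the other way: 17.27, 19.32, 16.18 and 14.57 in WT, 41.81, 29.9, 29.37 and 27.81 in Smad2_KO1, and 25.97, 40.5, 33.68 and 25.16 in Smad2_KO2 (0.86, adjusted p = 0.000464). Its counterpart in Ctrl did not pass (0.02, adjusted p = 0.966).

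Slc27a2, a very long-chain acyl-CoA synthetase and transporter, changed in opposite directions along its length in Ctrl. The interval upstream of its start, centred at -424 bases, fell from a WT mean of 341.32 to 243.41 and 248.05 (-0.48, adjusted p = 3.3e-05). The 7 intervals away from both gene ends together had 123.9, 126.3, 135.8 and 116.5 in WT, 188.1, 202.5, 179.9 and 168.7 in Smad2_KO1, and 182.4, 230.2, 156.2 and 179.1 in Smad2_KO2. All knockout libraries were above all WT libraries there (0.56, SE 0.09, adjusted p = 6.73e-06), and in Paused the same was found over 5 intervals (0.49, adjusted p = 1.48e-05). The largest rises in Ctrl were at chr2:126575452-126575652 in the body, from 33.04 in WT to 57.74 and 56.9 (0.78, adjusted p = 0.000231), and at chr2:126549597-126549797 in the flank, from 8.29 to 14.33 and 17.22 (0.83, adjusted p = 0.0179, or 0.0631 without WT library 1). Only 1 WT library of the flank interval, at 10.95, reached 10, so that interval passed the filter only with knockout libraries. The summed signal over the whole gene did not pass in Ctrl (-0.08, limma adjusted p = 0.425), and its sign depended on the setting: with no extension of the gene body it was called higher (0.61, adjusted p = 3.63e-05), and with size factors lower (-0.15, adjusted p = 0.046). In Paused it was higher (0.22, limma adjusted p = 0.00746), which was lost with size factors (0.12, adjusted p = 0.155). Slc27a4, a fatty acid transport protein, fell by 0.19 in both treatments (adjusted p = 0.00619 and 0.00345), at its 3′ end and the flank behind it: at chr2:29817773-29817973 WT had 218.84 against 175.95 and 190.28 in Ctrl. With no extension of the gene body its fold change was -0.07 in Ctrl (adjusted p = 0.559) and -0.06 in Paused.

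The remaining uptake calls were smaller. Fabp3, a fatty acid binding protein of muscle, was 764.3, 717.0, 646.3 and 716.4 in WT in Paused against 585.0 to 646.1 in the knockout lines (-0.20, adjusted p = 0.00306). Ctrl gave -0.14 (adjusted p = 0.166, or 0.0159 with size factors). Fabp4, the binding protein of fat cells, was 0.25 higher in Paused (adjusted p = 0.0482). That call was lost with size factors (0.15, adjusted p = 0.199) and in 8 of 12 fits with a library left out, which are those without WT library 4 (0.451), at 84.8 against 127.4 to 131.6 in the other WT libraries, and without each knockout library but Smad2_KO1 library 4 (0.0509 to 0.103). At single intervals, Slc27a1, a transporter, lost signal at chr8:71566485-71566685 in Paused (59.37, 65.48, 56.1 and 60.92 in WT against 27.97 to 43.71 in the knockout lines, -0.73, adjusted p = 0.000186). That interval lies at an end of the neighbouring gene Nxnl1. A weaker one in its body, chr8:71575140-71575340, went from 17.5 to 8.94 and 10.85 (-0.82, adjusted p = 0.0292), a call lost in 5 of 12 fits with a library left out (up to 0.0943, without WT library 3). Weak body intervals of Acsl3 and Acsl1, both synthetases, rose in Paused, from WT means of 5.1 and 9.2 to 16.92 and 20.16 in Smad2_KO1 and 12.96 and 23.05 in Smad2_KO2. All WT libraries at the Acsl3 interval lay under 10, so it was tested only through its knockout libraries. At the Acsl1 interval only WT libraries 1 and 3, at 14.03 and 10.79, reached 10, so it too passed the filter only with knockout libraries. In Ctrl an Acsl3 body interval, chr1:78673509-78673709, went from 23.33 to 14.77 and 13.78 (-0.66, adjusted p = 0.0404), a call lost in 6 of 12 such fits (up to 0.178, without WT library 3). The Acsl3 gene end did not pass in Ctrl (0.01, adjusted p = 0.954) or Paused (-0.08, adjusted p = 0.492).

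**Figure D3:**
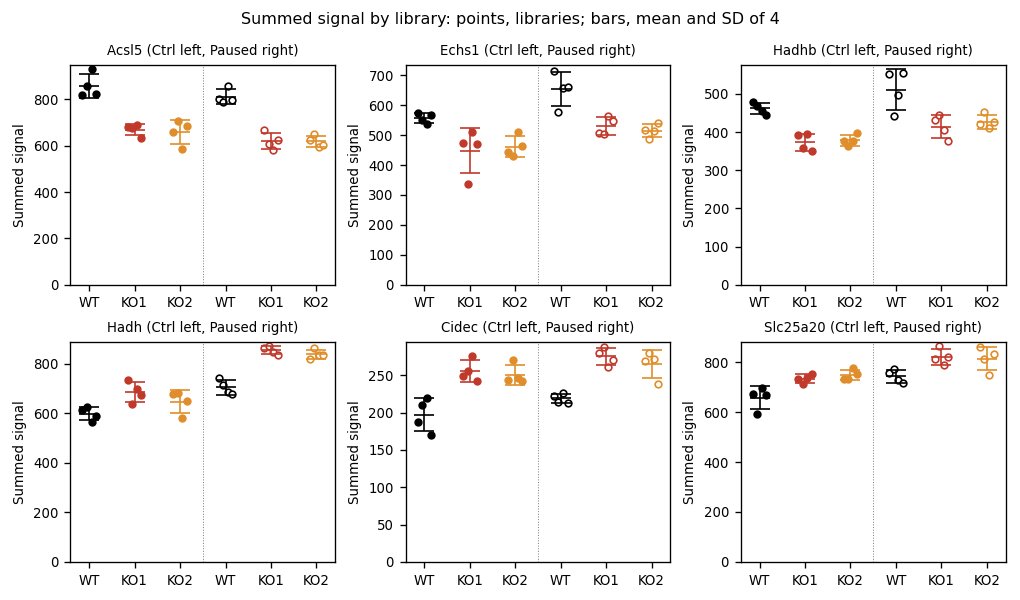
Summed signal in each library for the genes that the comparison turns on, as points with the mean and SD of each group of 4, Ctrl on the left and Paused on the right of each panel. For Acsl5 every knockout library lies below every WT library in both treatments.

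The 17 oxidation genes had the most intervals. Of 146 tested in Ctrl 22 were higher and 7 lower, 19.9% called beside 17.1% of all intervals, and of 139 in Paused 35 and 12, 33.8% beside 27.5%. With size factors these were 15 and 11, and 28 and 20. The rises lay away from gene ends, with 22 higher and 4 lower of 129 in Ctrl (20.2% called beside 16.1% of such intervals near any gene) and 34 and 6 of 120 in Paused (33.3% beside 26.8%). Of such intervals near any gene, 9.95% were higher and 6.14% lower in Ctrl, and 18.7% and 8.11% in Paused. With size factors the oxidation counts away from gene ends were 15 and 8, and 27 and 10. At the ends of the oxidation genes 0 were higher and 3 lower of 17 in Ctrl (17.6% beside 10.5%), and 1 and 6 of 19 in Paused (36.8% beside 26.9%). Whether this share differs between oxidation and the other functions was not tested.

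Hadh, the hydroxyacyl-CoA dehydrogenase of the third step, had the largest rise among them. In Paused the body interval chr3:131260585-131260785, 11416 bases past the start, had 8.64, 21.47, 19.42 and 19.86 in WT, 57.96, 57.09, 54.42 and 63.57 in Smad2_KO1, and 59.93, 53.24, 56.13 and 53.6 in Smad2_KO2. Every knockout library was above every WT library, with a log2 fold change of 1.73 (SE 0.17, adjusted p = 1.32e-09). In Ctrl the overlapping interval starting at 131260724 had 3.2, 6.27, 16.43 and 9.71 in WT, 28.21, 24.67, 22.49 and 17.33 in Smad2_KO1, and 23.05, 22.75, 17.0 and 22.14 in Smad2_KO2. These did not overlap either (1.40, SE 0.25, adjusted p = 6.68e-05). Only WT library 3, at 16.43, reached 10 there, so this Ctrl interval was tested only through its knockout libraries. Of the 10 Hadh intervals 3 were higher in Ctrl and 7 in Paused (3 and 5 with size factors), including one 34996 bases in at 1.06 and 1.17. The Hadh gene end, at a WT mean of 216.86 in Ctrl and 241.74 in Paused, had -0.01 and 0.03. The summed signal was 741.6, 714.9, 686.2 and 676.7 in WT and between 821.0 and 870.8 in the knockout lines in Paused (0.26, adjusted p = 3.3e-05), and 0.15 in Ctrl (adjusted p = 0.0601).

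**Figure D4:**
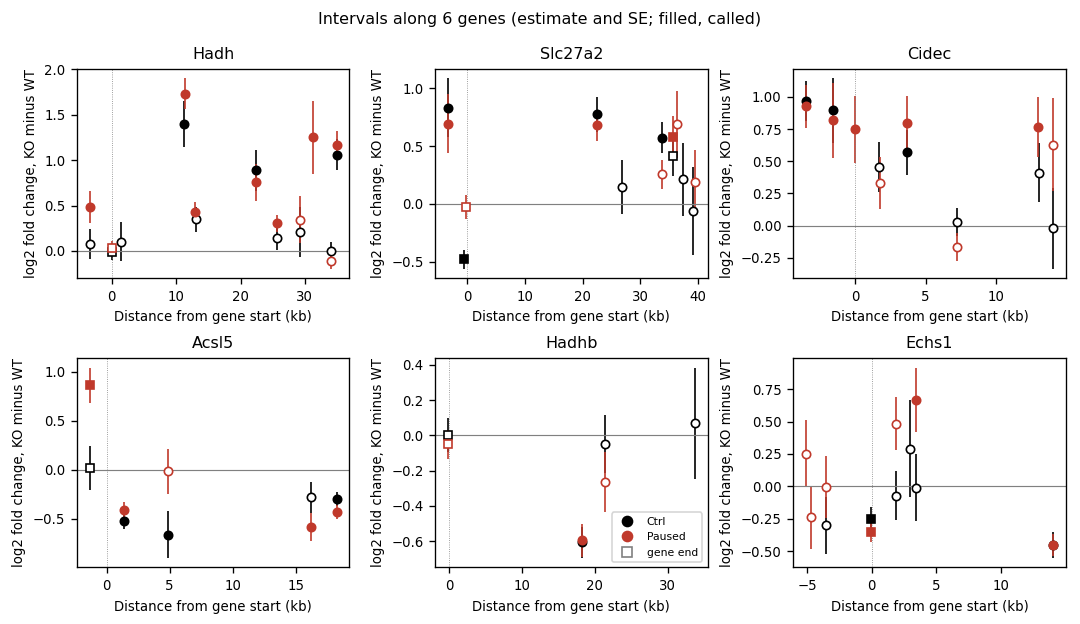
Log2 fold change of each interval with its standard error against its distance from the gene start in kb, for 6 genes, with Ctrl in black, Paused in red, called intervals filled and gene ends as squares. In Hadh the rise of 1.73 lies at 11416 bases while the gene end lies near 0.

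Hadhb and Echs1 fell. Hadhb, the thiolase subunit of the trifunctional protein, had summed signals of 478.5, 469.4, 454.5 and 445.4 in WT, 392.4, 357.8, 393.6 and 351.2 in Smad2_KO1, and 376.8, 363.1, 376.1 and 398.5 in Smad2_KO2 in Ctrl. All knockout libraries were lower (-0.30, SE 0.06, adjusted p = 0.000637), and in Paused it was -0.28 (adjusted p = 0.000783). The fall came from chr5:30173430-30173630 in the gene body, where WT had 250.27 against 159.51 and 168.86 in Ctrl (-0.61) and 216.07 against 137.95 and 146.96 in Paused (-0.60). The start that Hadhb shares with Hadha, the partner subunit, had a log2 fold change of 0.003 in Ctrl. Echs1 had 572.5, 551.8, 535.6 and 568.3 in WT, 474.4, 338.2, 510.7 and 469.0 in Smad2_KO1, and 441.9, 429.6, 509.9 and 465.0 in Smad2_KO2 in Ctrl. The knockout lines were lower (-0.30, adjusted p = 0.00228; -0.32 and 4.55e-05 in Paused), though with no extension the Ctrl value was -0.21 (adjusted p = 0.088). Besides the promoter shown above, it fell at a flank interval, chr7:140102292-140102492, which lies in the neighbouring gene Fuom (-0.45 in both treatments).

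Other oxidation genes rose away from their ends. Acaa2, the mitochondrial thiolase, had 286.2, 295.6, 309.9 and 267.5 in WT over 10 such intervals in Ctrl, 424.0, 404.0, 429.2 and 372.0 in Smad2_KO1, and 400.8, 358.6, 377.1 and 345.2 in Smad2_KO2. Every knockout library was higher (0.42, adjusted p = 3.88e-06), and in Paused it was 0.35 (adjusted p = 4.5e-06), while its gene-end sum was lower in Paused at -0.30 (adjusted p = 0.00543, or 0.0542 with same-numbered knockout libraries averaged). A weak body interval, chr18:74804520-74804720, rose from 4.94 to 11.43 and 11.34 in Ctrl (1.10, adjusted p = 0.0122, or 0.0516 without WT library 4) and from 3.54 to 15.43 and 9.96 in Paused (1.69, adjusted p = 0.000224). All its WT libraries lay under 10 in both treatments, so it was tested only through its knockout libraries. Slc25a20, the carnitine carrier, rose by 0.29 (adjusted p = 0.000204) and 0.33 (adjusted p = 1.7e-05) over its other intervals, from 372.6 to 440.3 in WT to 472.0 to 517.8 in the knockout lines in Ctrl. Etfa, an electron transfer subunit, rose in Ctrl (0.41, adjusted p = 0.00628) and Etfdh in Paused (0.38, adjusted p = 0.00438). Summed over everything, Slc25a20 was 0.18 higher in Ctrl (adjusted p = 0.0192) and 0.14 in Paused (0.0223), but with size factors 0.10 and 0.03 (adjusted p = 0.16 and 0.61), and without WT library 2 the Ctrl p was 0.152. The Paused call was also lost without WT library 4 (0.0827), Smad2_KO1 library 2 (0.0537) and Smad2_KO2 library 1 (0.0514). Acadl, the long-chain dehydrogenase, was 0.17 higher in Paused (adjusted p = 0.0462), which was lost with size factors (0.06, adjusted p = 0.487), with no extension (0.09, adjusted p = 0.424) and in 9 of 12 fits with a library left out (0.055 to 0.152), all but those without WT library 4, Smad2_KO1 library 2 and Smad2_KO2 library 1.

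Cpt1b, the muscle carnitine palmitoyltransferase, had its gene-end interval fall in Ctrl from 61.95, 59.12, 43.81 and 57.16 in WT to 27.36, 24.67, 32.8 and 54.29 in Smad2_KO1 and 34.07, 34.58, 41.43 and 41.26 in Smad2_KO2. One Smad2_KO1 library, at 54.29, lay within the WT range (-0.62, adjusted p = 0.00481). In Paused the gene end went from 110.67 to 80.81 and 78.58 (-0.46, adjusted p = 0.00379). A Ctrl flank interval, chr15:89412899-89413099, went from 19.95 to 10.19 and 12.37 (-0.73, adjusted p = 0.0316), a call lost in 5 of 12 fits with a library left out (up to 0.151, without WT library 3). The summed signal fell by 0.20 in Ctrl (adjusted p = 0.0265) and by 0.21 in Paused (adjusted p = 0.00573). Without WT library 1, 2 or 4 or Smad2_KO1 library 2 the Ctrl p of the sum was 0.0845, 0.0709, 0.104 or 0.0541, with no extension it was 0.0559, and without WT library 4 the Paused p was 0.098. Acadvl, whose promoter is shown above, also fell in Paused at chr11:70018276-70018476, inside the neighbouring gene Dlg4, from 57.21, 48.3, 53.95 and 59.59 in WT to between 23.32 and 42.71 in the knockout lines (-0.89, adjusted p = 6.94e-05).

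Of the 63 storage intervals tested in Ctrl 9 were higher and 1 lower, 15.9% called beside 17.1% of all intervals, and of 59 in Paused 16 and 3, 32.2% beside 27.5%. With size factors these were 6 and 3, and 10 and 6. Cidec, a droplet fusion protein, had summed signals of 188.0, 209.6, 220.1 and 170.4 in WT, 248.8, 256.0, 276.4 and 242.6 in Smad2_KO1, and 243.5, 270.3, 246.5 and 242.5 in Smad2_KO2 in Ctrl. All knockout libraries were above WT (0.37, adjusted p = 0.000652), as in Paused, with WT between 213.2 and 226.6 and the knockout lines between 238.5 and 288.2 (0.30, adjusted p = 0.000993). The largest part lay in the upstream flank at chr6:113439172-113439372 (0.97 in Ctrl and 0.93 in Paused). The call was lost without the extension (0.19, adjusted p = 0.166 in Ctrl) and with 10 kb (0.03, 0.727), so it rests on the 5 kb window.

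Plin2, the droplet coat protein, rose in Paused at a body interval, chr4:86632976-86633176, from 28.07, 15.03, 32.37 and 19.86 in WT to 48.46, 53.47, 50.1 and 40.72 in Smad2_KO1 and 56.93, 53.24, 52.76 and 45.95 in Smad2_KO2 (1.10, adjusted p = 4.12e-06). In Ctrl a weak body interval, chr4:86644637-86644837, rose from 4.26 to 9.16 and 10.24 (1.15, adjusted p = 0.0225), a call lost without WT library 1 (0.0521), WT library 3 (0.152) or Smad2_KO1 library 3 (0.055). All WT libraries there lay under 10, so it was tested only through its knockout libraries. The Plin2 summed signal was 0.21 higher in Paused (adjusted p = 0.0127), lost with size factors (0.11, 0.226) and without WT library 1 (0.0758) or 2 (0.122). Dgat2, one of the triglyceride-forming acyltransferases, rose at a weak body interval in Paused (1.64, adjusted p = 3.22e-05), from 2.15 to 7.55 in WT to 12.35 to 26.61. With every WT library under 10, this interval too was tested only through its knockout libraries. Plin3, another coat protein, rose in Ctrl at chr17:56285518-56285718, from 21.36, 20.6, 9.86 and 31.27 to between 33.21 and 48.87 (1.04, adjusted p = 6.2e-05). Dgat1, the other acyltransferase, was lower in Paused, with 702.7, 661.2, 659.2 and 693.9 in WT and at most 631.9 in the knockout lines (-0.19, adjusted p = 0.00326), and so was its gene end (-0.20, adjusted p = 0.0133). In Ctrl the Dgat1 sum had -0.08 (adjusted p = 0.441). The Paused call of the Dgat1 sum was lost with a 10 kb extension (adjusted p = 0.0528). That of its gene-end interval was lost with same-numbered knockout libraries averaged (0.0529). Cidea, a droplet fusion protein, was lower in Paused (-0.14, adjusted p = 0.012), a call lost with edgeR (-0.08, 0.0765) and with a 10 kb extension (-0.09, 0.0834). Its flank interval chr18:67341469-67341669 went from 358.22 to 274.79 and 280.45 there (-0.36, adjusted p = 0.00166). A Cidea body interval, chr18:67364535-67364735, was lower in Ctrl (-0.25, adjusted p = 0.0413) and in Paused (-0.23, adjusted p = 0.0241), calls lost in 8 and 3 of 12 fits with a library left out (up to 0.115, without WT library 2, and 0.0651, without WT library 3).

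The lipases had no called interval of 12 in Ctrl, beside 17.1% of all intervals, and 1 higher and 5 lower of 12 in Paused, 50.0% beside 27.5%, or 0 and 6 with size factors, which gave 1 lower in Ctrl. Lipe, hormone-sensitive lipase, had a summed signal of 1239.2, 1075.5, 1167.4 and 1238.2 in WT in Paused, 1057.6, 1030.4, 1080.6 and 1103.4 in Smad2_KO1, and 1009.8, 1002.6, 1119.2 and 1063.3 in Smad2_KO2 (-0.16, adjusted p = 0.00662). The ranges overlapped, as WT library 2 at 1075.5 lay within the knockout values. With no extension the sum was not called (-0.12, adjusted p = 0.111). Its gene-end interval went up (0.31, adjusted p = 0.009), a call lost with size factors (0.20, adjusted p = 0.111), TMM (0.0885), edgeR (0.0825) and DESeq2 (0.17), and a body interval, chr7:25382625-25382825, down (-0.55, adjusted p = 0.00045). Pnpla2, the adipose triglyceride lipase, was 638.0, 550.6, 560.0 and 705.9 in WT and between 476.2 and 587.5 in the knockout lines (-0.23, adjusted p = 0.00459, or 0.0636 without WT library 4 and 0.111 with no extension). Its flank interval chr7:141464936-141465136, inside the neighbouring gene Cracr2b, was lower (-0.30, adjusted p = 0.0172, or 0.0601 without WT library 1 and 0.0982 without WT library 4), and its gene end, at 311.32 in WT, had -0.20 (adjusted p = 0.0836, or 0.0174 with size factors). Neither sum passed in Ctrl (-0.04 and -0.03).

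The regulators had no called interval of 26 in Ctrl, beside 17.1% of all intervals, and 5 higher and 3 lower of 27 in Paused, 29.6% beside 27.5%. With size factors these were 0 and 2, and 3 and 4. Pdk4, the kinase that turns down pyruvate dehydrogenase, had 1152.9, 1044.4, 1048.7 and 1055.5 in WT in Paused, with all knockout libraries at or below 1004.3 (-0.17, adjusted p = 0.00295). This came from a flank interval, chr6:5482400-5482600 (-0.25), and with no extension the gene had 0.03 (adjusted p = 0.937). Its gene end, at 331.27 in WT in Ctrl and 427.33 in Paused, did not pass (-0.17 and -0.09), though with size factors it was called lower in Ctrl (-0.24, adjusted p = 0.0181). Ucp2, an uncoupling protein, was lower in Paused (-0.15, adjusted p = 0.0301), lost without WT library 1 (0.184), Smad2_KO1 library 3 (0.0743) or Smad2_KO2 library 1 (0.0543) or 3 (0.057). The call was also lost with library totals (0.0567), same-numbered knockout libraries averaged (0.0956), edgeR (0.0951) and a 10 kb extension (-0.06, 0.378). The weak Ucp2 flank interval chr7:100503844-100504044, inside the neighbouring gene Dnajb13, rose from 5.9 to 12.09 and 10.94 (0.89, adjusted p = 0.0185, or 0.0557 without WT library 2). That interval had every WT library under 10 and was tested only through its knockout libraries. Angptl4, a lipase inhibitor, had a flank interval with 23.75, 8.59, 29.13 and 35.76 in WT, of which the second lay among knockout values, and a fall of -0.98 (adjusted p = 0.0063, or 0.0648 without WT library 4). An Angptl4 body interval, chr17:33776992-33777192, went the other way, from 4.82 to 12.28 and 8.24 (0.97, adjusted p = 0.0243, or 0.132 without WT library 1). It also had every WT library under 10 and was tested only through its knockout libraries. The Angptl4 gene end, at 189.33 in WT in Ctrl, had -0.06 there (adjusted p = 0.717).

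Among 80 other genes of lipid metabolism from a named list, 4 were higher and 4 lower in Ctrl (10.0% beside 16.2% of all genes) and 6 and 14 in Paused (25.0% beside 36.5%). Bscl2, which encodes the droplet assembly protein seipin, was lower in both (-0.42 and -0.35), as were Soat1, which esterifies cholesterol (-0.38 and -0.25), and Fitm1, a droplet protein (-0.31 and -0.29). Slc27a5, a liver transporter of the same family as Slc27a2, was higher in both (0.35 and 0.50), as was Acad9, a dehydrogenase (0.26 and 0.23).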

How the data were processed

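Open chromatin was measured by ATAC-seq in 24 libraries. Per the submitters' processing notes the tools were FastQC, Trim Galore, Bowtie2 2.4.1, MACS3 3.0.3 and DiffBind 3.16.0, and the build was mm10 (GRCm38); Tn5 shifting, duplicate handling and mitochondrial filtering are not given in the sources used here. The authors deposited 1 table per treatment with a normalized signal per interval and library, which is reads divided by 1 factor per library: in every column at least 99.97% of values lay on whole multiples of 1 read (within 0.006; at most 1.6% would by chance). The authors' deposited log2 fold change and the deposited p-value and FDR columns compare knockout with WT.

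Here limma 3.58.1 in R 4.3.3 (eBayes with trend) was fitted to log2(value + 1) across all intervals with a value of at least 10 in at least 4 libraries, with line as factor, the mean of both knockout lines against WT, and Benjamini-Hochberg adjustment over all intervals, and likewise to sums per protein-coding gene. Fold changes on this scale understate the change of low intervals. Other settings tried were size factors and the Wald test of DESeq2 1.42.0, edgeR 4.0.16 TMM factors and its quasi-likelihood test on the recovered reads, library totals, other filters, pseudocounts, windows, and leaving out libraries. The tests were tried on simulated data. Named are genes with a called sum, per function the called intervals with the largest rises and falls, and the strongest and weakest gene ends; further intervals of those genes and the promoter group were chosen after their values were seen. The members and lists were chosen with earlier results of these data known. In Paused, the number 2 libraries of both knockout lines differed by no more than sampling noise (chi-square per degree of freedom 1.001). Being labelled as different lines, they were kept apart, and averaging same-numbered knockout libraries was an alternative. It kept 38 of 55 Ctrl and 74 of 103 Paused interval calls. Of the gene sums called, it kept all 7 in Ctrl and 14 of 19 in Paused. Promoters are from RefSeq, GRCm38.p6.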

Additional observations from a re-analysis of the deposited data

Results flagged for a closer look

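In 17 of 258 groups of 4 libraries, 1 library stood apart from the other 3 by Dixon's test at its 95% critical value, and chance gives about 1 in 20 groups, or 12.9. In Ctrl, the summed signal of Cidec was 270.3 in Smad2_KO2 library 2 against 242.5 to 246.5 in the others, Fabp3 was 468.9 in WT library 1 against 394.3 to 406.7, Slc27a2 was 440.4 in Smad2_KO1 library 3 against 473.9 to 480.6, and Lipe was 832.7 in Smad2_KO1 library 2 against 944.6 to 965.7. The Hadh interval starting at 131260724 had 17.0 in Smad2_KO2 library 3 against 22.14 to 23.05.

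In Paused, summed signals that stood apart were Slc27a4 at 1356.5 in Smad2_KO2 library 4 (others 1191.6 to 1211.2), Fabp4 at 84.8 in WT library 4 (127.4 to 131.6), Acadl at 383.4 in Smad2_KO1 library 4 (330.8 to 338.2), Plin2 at 548.2 in Smad2_KO2 library 2 (512.0 to 517.4) and Pdk4 at 1152.9 in WT library 1 (1044.4 to 1055.5). Single intervals were Acsl5 at 41.81 in Smad2_KO1 library 1 (27.81 to 29.9), Acsl3 at 427.7 in Smad2_KO2 library 3 (468.21 to 474.7), Hadh at 8.64 in WT library 1 (19.42 to 21.47) and Etfdh at 662.2 in Smad2_KO2 library 1 (761.4 to 779.91). Cidea had 200.76 in the same library (223.39 to 227.97), and in Smad2_KO1 library 1 Dgat1 had 586.27 (532.85 to 541.61) and Lipe 100.72 (72.5 to 75.48).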

How the results depend on the processing

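Of 2743 alternative log2 fold changes for 131 named results, 2447 kept their direction and side of the threshold, 233 lost and 29 gained a call, and 32 changed sign without a call in either fit, for example Plin2, Pnpla2 and 2 gene ends (Acsl5, Acsl3) in Ctrl with a library left out. Another 2 reversed with no extension of the gene body: Pdk4 in Paused, called lower, at 0.027 (adjusted p = 0.937), and Slc27a2 in Ctrl, not called at -0.079, at 0.606 (adjusted p = 3.63e-05). The main fit called 55 Ctrl and 103 Paused member intervals. DESeq2 on the recovered reads called 33 and 66, of which 28 and 55 were also called in the main fit. A limit of 1 on the size of the log2 fold change left 6 and 14. In both lines with the same sign, 23 and 53 passed. Smad2_KO2 alone gave 34 in Ctrl, and no extension gave 68 in Paused. Leaving out a library gave 34 to 52 and 79 to 104. No gene sum reached a log2 fold change of 1 (0 against 7 and 19). Gene-end sums (2 in Ctrl, 9 in Paused) gave 1 with 1000 bases in Ctrl and, in alternatives chosen after seeing the data, 6 and 17 with size factors, 5 and 15 with TMM, 4 with edgeR in Ctrl, 3 with same-numbered knockout libraries averaged in Paused, and 1 to 4 and 6 to 19 with a library left out. The causes were not tested. Deviations from the line means were correlated between same-numbered libraries. Between WT and the knockout lines the correlations were -0.007 to 0.063. Between Smad2_KO1 and Smad2_KO2 they were 0.008 to 0.109 in Ctrl and 0.034 to 0.187 in Paused. A fit with these numbers as a replicate block gave 58 and 113 intervals and 8 and 19 gene sums. The weakest intervals named rest on few reads, with a WT mean of 3.54 at Acaa2 in Paused, and how far depth limits their calls was not tested.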
